A study of Homo sapiens with 4 samples.

Results

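Integrins are receptors made of 1 α and 1 β subunit that bind extracellular matrix outside the cell and, through talin, kindlin and a set of adaptor proteins, the actin cytoskeleton inside it. The places where this happens, focal adhesions, also carry kinases and LIM-domain proteins that respond to force. In kidney tubule epithelium, integrins of the β1 class hold cells to the basement membrane, and the αV integrins with the β6 or β8 subunit are known for releasing TGF-β from its latent complex. The 36 genes described here are 14 integrin subunits and 22 focal adhesion proteins, chosen by gene symbol from 25609 genes in the deposited table, and all 36 had a value.

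The study sequenced total RNA of HK-2 cells (labelled HK2, genotype WT), a human proximal tubule line immortalised with papillomavirus oncogenes. There were 2 libraries of cells given TGF-β1 (HK2TGFb_1 and HK2TGFb_2) and 2 control libraries (HK2_1 and HK2_2). The cells were kept 24 h in medium with no serum before a 24 h exposure to TGF-β1 at 20 ng/mL, and 4-thiouridine, a uridine analogue that marks new RNA, was added for the last 20 h at 100 μM. The labels give this same text for the controls, which were taken, from their titles and treatment labels, to have had serum withdrawal and 4-thiouridine but no TGF-β1. All groups are of a single immortalised line. Separate cultures are not named in the labels, and p-values therefore rest on a spread between libraries that may be only technical. The values are RPKM, reads per kilobase of exon relative to library size, with the library sizes set by the authors. Levels of different genes can therefore be compared per length. The recovered read totals were 4638412 and 5451319 in the TGF-β1 libraries and 3336420 and 4801244 in the control libraries.

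Of the 10 tubule epithelial markers listed, 9 could be tested. KRT8 and KRT18, keratins of simple epithelia, were higher with TGF-β1 (log2 fold change 1.19 and 0.43), and EPCAM, PAX8, CDH16 and KRT19 were lower (-0.89, -1.50, -0.99 and -1.52). CDH1, the E-cadherin gene, had only 15 and 14 reads in TGF-β1 libraries and 25 and 27 in controls. The 5 leukocyte markers with a value summed to 14 and 8 reads in the TGF-β1 libraries and 8 and 17 in the controls, with TYROBP and NCAM1 at 0 in all 4. The 3 endothelial markers with a value summed to 4 and 3 reads with TGF-β1 and to 1 and 2 in controls, with VWF and CDH5 at 0. The 5 fibroblast and pericyte markers summed to 153 and 126 reads with TGF-β1 and 163 and 258 in controls, nearly all from LUM and RGS5.

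Promoter sequence is shown for the 5 members in which a CArG box, the motif bound by serum response factor (SRF), lies within 250 bases upstream of an annotated start, because that motif was the one whose share differed most between the members and all promoters. SRF is a transcription factor of many cytoskeletal genes and is controlled by the state of actin. RefSeq promoter windows (GRCh38.p14) were at hand for 29 of the 36 members, 62 windows in all, since a gene can have several starts. The box was found on either strand in 7 member windows (11.3%), of 5 genes, and in 1.16% of all 35116 windows. FHL2 accounts for 3 of the 7, of which 2 overlap and hold the same box. The windows printed 5′ to 3′ are chr2:105399052-105399301 on the minus strand for FHL2, chr16:31472955-31473204 on the plus strand for TGFB1I1, chr7:116222703-116222952 on the plus strand for TES, chr2:160200273-160200522 on the minus strand for ITGB6 and chr3:188212462-188212711 on the plus strand for LPP. Capitals mark the CArG box, and in LPP also a TGANTCA match.
FHL2: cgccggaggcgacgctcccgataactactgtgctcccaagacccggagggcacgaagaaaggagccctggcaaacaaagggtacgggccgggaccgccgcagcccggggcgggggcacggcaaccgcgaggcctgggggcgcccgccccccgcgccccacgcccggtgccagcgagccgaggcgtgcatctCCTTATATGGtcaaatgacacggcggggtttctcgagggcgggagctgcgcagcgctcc
TGFB1I1: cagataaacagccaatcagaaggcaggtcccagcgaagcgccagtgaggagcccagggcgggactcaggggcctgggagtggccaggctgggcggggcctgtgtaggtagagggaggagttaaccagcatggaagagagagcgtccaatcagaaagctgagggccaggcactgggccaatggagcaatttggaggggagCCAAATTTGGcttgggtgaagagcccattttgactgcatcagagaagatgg
TES: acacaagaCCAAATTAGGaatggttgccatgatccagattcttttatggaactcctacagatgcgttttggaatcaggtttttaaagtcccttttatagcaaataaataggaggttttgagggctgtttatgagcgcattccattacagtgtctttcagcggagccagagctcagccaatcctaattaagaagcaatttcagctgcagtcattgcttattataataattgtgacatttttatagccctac
ITGB6: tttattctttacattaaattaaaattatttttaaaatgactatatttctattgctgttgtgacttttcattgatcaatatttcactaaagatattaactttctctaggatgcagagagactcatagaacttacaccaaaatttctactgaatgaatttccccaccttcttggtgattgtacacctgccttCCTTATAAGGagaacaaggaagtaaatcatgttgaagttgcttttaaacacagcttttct
LPP: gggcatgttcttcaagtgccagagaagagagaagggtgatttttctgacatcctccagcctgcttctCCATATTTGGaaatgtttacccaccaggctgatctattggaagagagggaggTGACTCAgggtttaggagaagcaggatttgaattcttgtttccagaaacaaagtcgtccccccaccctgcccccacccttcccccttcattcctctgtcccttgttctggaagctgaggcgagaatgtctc
Counted from the annotated start of the printed window, the box begins 59 bases upstream in FHL2, 51 in TGFB1I1, 242 in TES, 60 in ITGB6 and 183 in LPP. The other windows of TGFB1I1, TES and LPP held no CArG box, nor did the FHL2 window at chr2:105399668-105399917. Which start these cells use was not examined. The motif TGANTCA of AP-1 was found in 8.06% of member windows against 6.57% of all, the TEAD motif GGAATG in 17.7% against 11.9%, the SMAD motif CAGAC in 41.9% against 38.0% and the SMAD palindrome GTCTAGAC in 0 against 0.182%, each searched on both strands. Matches of different motifs may overlap, as do the CArG box and a GGAATG match in TES, and windows of a gene may overlap. A match in these letters is a description of the window and no evidence of binding, and PDLIM7, whose rise is among the largest in the list, held none of the 5 motifs searched.

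Each member was tested with limma on log2(RPKM + 0.5) in a fit over the 16590 genes whose mean reached 0.5 RPKM, and an adjusted p below 0.05 over all of them is called a change. Of the 36 members 32 passed that minimum, while ITGA1, ITGA2, ITGA6 and ITGA11 did not. Among the 32, 10 rose with TGF-β1 (31.2%), where 6.12% of all tested genes did, and 3 fell (9.38%), where 3.0% of all did. In either direction 9.12% of all tested genes changed. Those that rose were TNS1, PXN, PDLIM7, ITGAV, ITGA5, ZYX, FHL2, TGFB1I1, ITGB5 and TES, and those that fell were ITGB4, ITGB2 and PDLIM1. The median log2 fold change of the 32 was 0.41, beside 0.03 over all tested genes. With the authors' library sizes, in 24 of the 32 both TGF-β1 libraries lay above both controls, an order seen in 29.5% of all tested genes, and in 6 both lay below, seen in 24.6% (54.1% in either order). These counts depend on the scaling. Relative to recovered totals the groups of ITGB3, PTK2, VCL, PARVA and PDLIM5 overlapped, and those of ITGA3 and LPP lay below the controls. The share of all tested genes was not counted on that scale. In bulk RNA, fewer cells of a type and less RNA per cell cannot be told apart. The epithelial markers above move with these results, and their part in them was not tested.

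**Figure D1:**
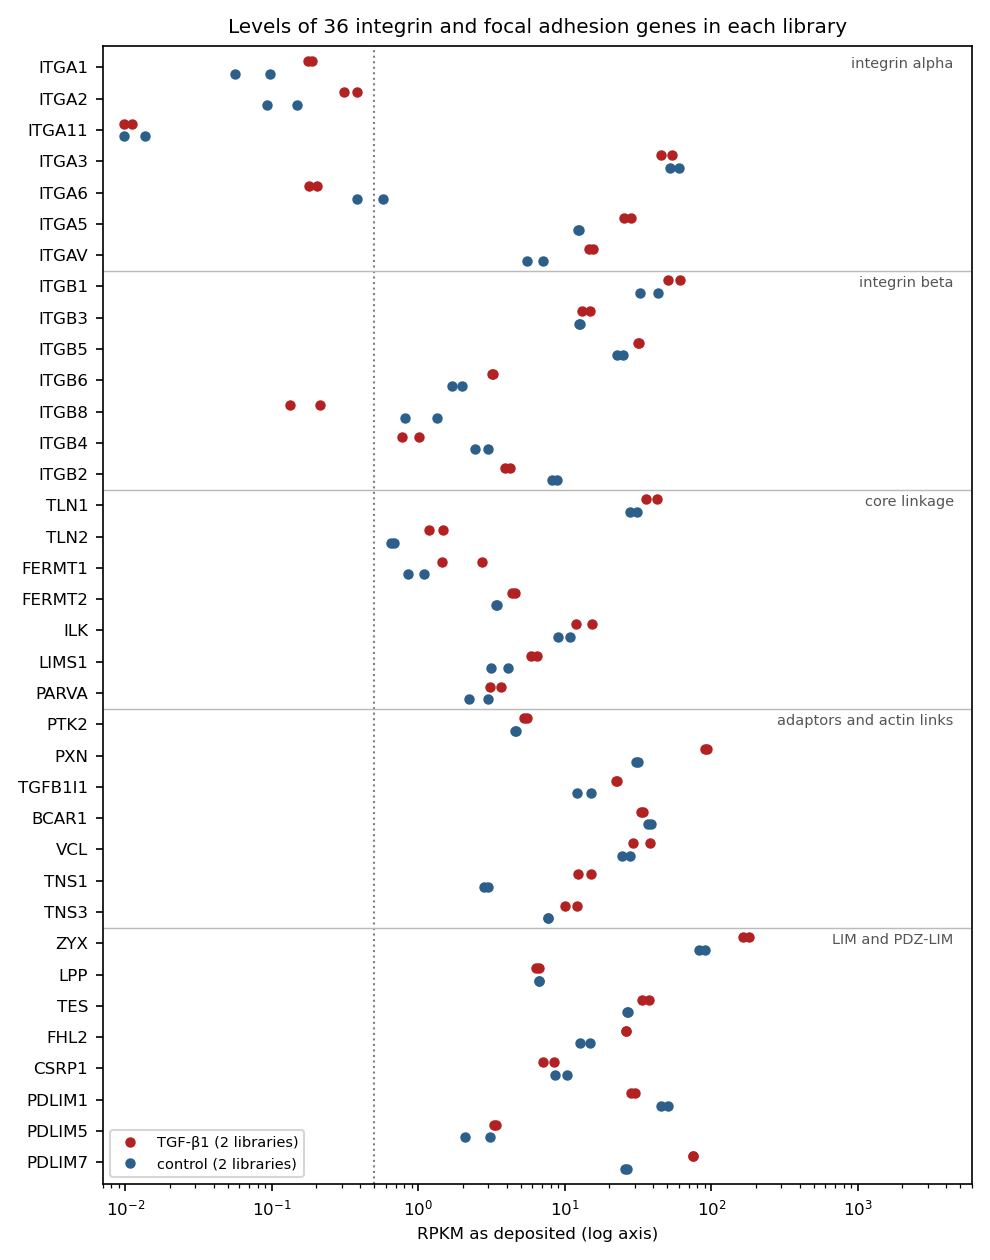
RPKM as deposited, on a log axis, of each of the 36 genes in the 2 TGF-β1 libraries (red, upper points of a row) and the 2 control libraries (blue, lower points), grouped by role. The dotted line marks 0.5 RPKM, the minimum mean for testing. The points of ITGA11 stand for 0 reads, since the deposited values add 0.5 read to each gene.

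**Figure D2:**
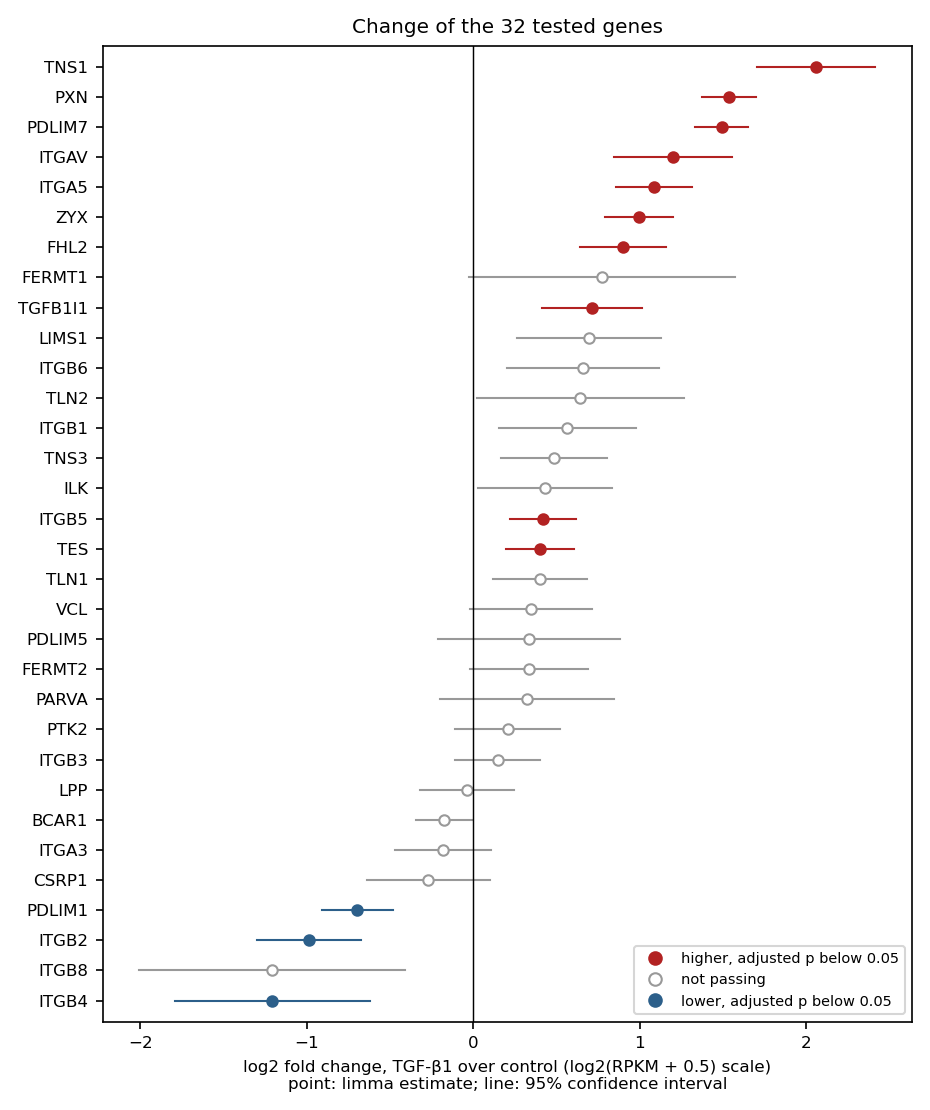
Log2 fold change of TGF-β1 over control on the log2(RPKM + 0.5) scale for the 32 tested genes, with the limma estimate as a point and its 95% confidence interval as a line. The 10 filled red points rose, the 3 filled blue points fell, and open points did not pass at an adjusted p below 0.05. TNS1 lies farthest to the right at 2.06 and ITGB4 and ITGB8 farthest to the left at -1.21.

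Of the 3 α subunits tested, the 2 that belong to receptors of fibronectin and vitronectin rose, where 6.12% of all tested genes did. ITGA5 (ENSG00000161638.10, hg38 chromosome 12, 54395261 to 54419460) encodes α5, which pairs with β1 as the main fibronectin receptor. It measured 25.5 and 28.4 RPKM in the TGF-β1 libraries and 12.5 and 12.3 RPKM in the controls. ITGA5 rose by a log2 fold change of 1.09 with a standard error of 0.09 (adjusted p = 0.00469), and the groups lay well apart. ITGAV (ENSG00000138448.11, chromosome 2, 186590065 to 186680901) encodes αV, which pairs with β1, β3, β5, β6 or β8 and binds the RGD sequence of vitronectin, fibronectin and latent TGF-β. Its level was 14.7 and 15.5 RPKM with TGF-β1 and 5.55 and 7.09 RPKM in controls, a rise of 1.20 ± 0.14 (standard error) on the log2 scale (adjusted p = 0.0112). The ITGAV call was lost without the variance trend (adjusted p = 0.0586).

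ITGA3 encodes α3, the laminin receptor subunit of tubule cells, and had the highest level of the 7 α subunits in every library. It measured 45.5 and 53.7 RPKM with TGF-β1 and 52.3 and 60.3 RPKM in controls. The groups overlapped and no change was called (log2 fold change -0.18, 95% confidence interval -0.47 to 0.11, adjusted p = 0.407). By limma-voom on recovered reads, which divides by the total of reads, ITGA3 was lower (-0.37, adjusted p = 9.24e-06).

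The α subunits below the minimum rested on few reads, and were not tested. ITGA1 and ITGA2, whose products with β1 are collagen receptors, had 13 and 16 reads (ITGA1) and 12 and 11 reads (ITGA2) with TGF-β1, against 3 and 8 reads (ITGA1) and 2 and 5 reads (ITGA2) in controls. Scaled by the authors' library sizes, the summed reads of TGF-β1 over control gave a ratio of 2.41 for ITGA1 (95% exact counting interval 1.17 to 5.34) and of 3.0 for ITGA2 (1.25 to 8.27). ITGA1 and ITGA2 had more reads, and a higher RPKM, in each TGF-β1 library than in either control. That order of RPKM was seen in 29.5% of all tested genes. The groups of ITGA10, another α subunit gene below the minimum, overlapped, with 8 and 15 reads with TGF-β1 and 5 and 15 in controls. PELO overlaps 2.56% of the exon bases of ITGA1 on the same strand. It had 186 and 228 reads with TGF-β1 and 167 and 224 in controls. Of the words of 50 bases in ITGA1 transcripts, 5.73% also occur in other genes, PELO among them, so the few ITGA1 reads are not firmly assigned. ITGA6, the α6 laminin receptor gene, had 5 and 5 reads with TGF-β1 and 8 and 17 in controls, a ratio of 0.365 (0.156 to 0.787). These intervals cover counting error only. ITGA11, the α11 collagen receptor gene of fibroblasts, had 0 reads in all 4 libraries. For ITGA11 this allows a level of up to 0.0311 RPKM with TGF-β1 and 0.0341 RPKM in controls, at 3 reads per group.

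Within the summed RPKM of the 7 α subunits, ITGA3 took 52.6% and 54.7% in TGF-β1 libraries and 73.8% and 74.9% in controls. The share of ITGA5 was 29.5% and 28.9% with TGF-β1 and 17.6% and 15.3% in controls. For ITGAV it was 17.0% and 15.7% with TGF-β1 and 7.83% and 8.80% in controls. Shares within a library do not depend on how libraries were scaled to each other, and in all 3 genes the groups lay apart. With 2 libraries against 2, an exact permutation test cannot reach p below 0.05, so shares and ratios are given without a test.

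**Figure D3:**
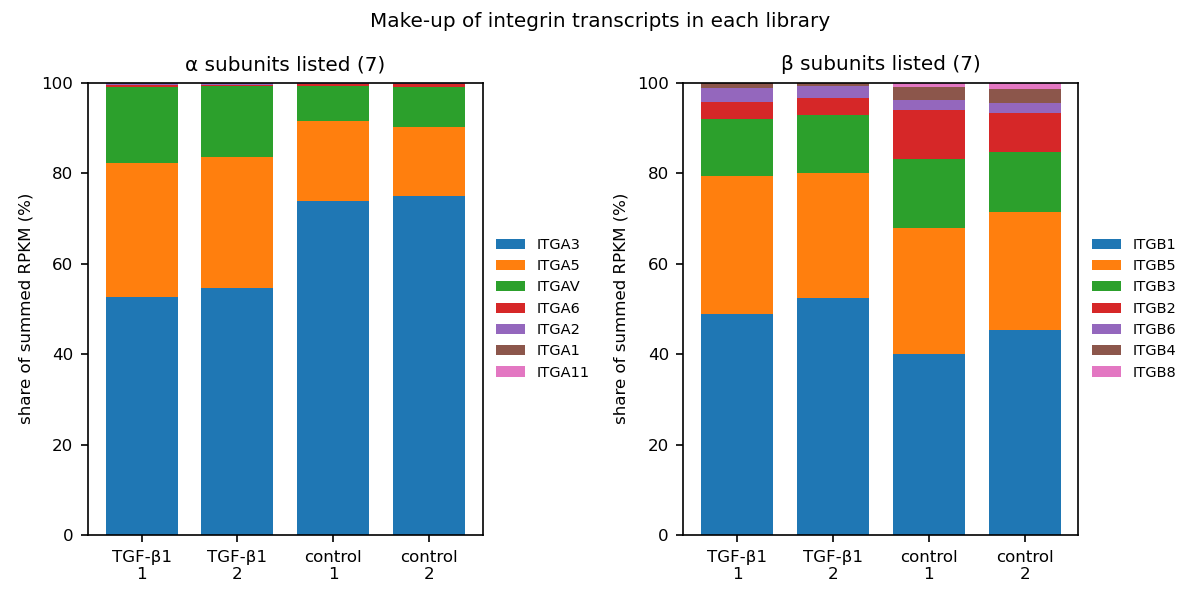
Share in percent of the summed RPKM of the 7 α subunits (left) and the 7 β subunits (right) in each of the 4 libraries, TGF-β1 left of control. The ITGA3 share is 52.6% and 54.7% in TGF-β1 libraries and 73.8% and 74.9% in controls, and ITGB1 is the largest part of the β subunits in all 4.

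The β subunits moved in both directions. ITGB1, the partner of most of the α subunits listed here, measured 50.6 and 60.9 RPKM with TGF-β1 and 32.5 and 43.0 RPKM in controls. Both TGF-β1 values lay above both controls, yet ITGB1 did not pass (log2 fold change 0.57, 95% confidence interval 0.15 to 0.98, adjusted p = 0.104). It passed without control replicate 2 (0.77, adjusted p = 0.0376) and by limma-voom (0.38, adjusted p = 0.00028). Of the words of 50 bases in ITGB1 transcripts, 8.87% also occur in another gene, AC022149.1.

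Among the partners of αV, ITGB5 rose. It encodes β5, a vitronectin receptor subunit, and measured 31.5 and 32.3 RPKM with TGF-β1 and 22.7 and 24.7 RPKM in controls (log2 fold change 0.42 ± 0.08 standard error, adjusted p = 0.0367). The ITGB5 call was lost when libraries were scaled by their recovered totals (0.24, adjusted p = 0.0971), after quantile normalisation (0.28, 0.077), and without TGF-β1 replicate 1 (0.121), TGF-β1 replicate 2 (0.157) or control replicate 1 (0.0856). ITGB3, the β3 gene of the classical vitronectin receptor, stood at 13.1 and 14.9 RPKM with TGF-β1 and 12.4 and 12.8 RPKM in controls and did not pass (0.15, 95% confidence interval -0.11 to 0.40, adjusted p = 0.439). Its sign turned when libraries were scaled by recovered totals (-0.03) and by limma-voom (-0.02). AC068234.1, a gene that overlaps it on the same strand, shares 50.7% of the 50-base words of ITGB3, so its reads are not firmly assigned.

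The genes of the β subunits known for releasing TGF-β gave values of opposite sign. ITGB6, the epithelial β6 gene, had 3.24 and 3.16 RPKM with TGF-β1 and 1.69 and 1.99 RPKM in controls (log2 fold change 0.66, 95% confidence interval 0.20 to 1.12, adjusted p = 0.0931). ITGB8, the β8 gene, had 0.214 and 0.133 RPKM with TGF-β1 and 0.808 and 1.34 RPKM in controls, a mean ratio of 0.162 (log2 fold change -1.21 with 0.5 added, adjusted p = 0.0844). Neither passed, although in each gene the groups did not overlap, as in 54.1% of all tested genes. The reads behind ITGB8 were 13 and 9 with TGF-β1 and 41 and 95 in controls, and limma-voom on these reads, which does not add 0.5 RPKM, gave -2.89 (adjusted p = 2.89e-09). By the same method ITGB6 was higher (0.60, adjusted p = 0.0256), on 85 and 94 reads with TGF-β1 and 36 and 59 in controls. The gene AC092153.1 overlaps ITGB6 on the same strand and shares 17.8% of its words.

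ITGB4 and ITGB2 fell. ITGB4 encodes β4, the partner of α6 in hemidesmosomes, which tie epithelia to laminin through keratin rather than actin. It measured 1.01 and 0.770 RPKM with TGF-β1 and 2.42 and 3.01 RPKM in controls (log2 fold change -1.21 ± 0.23 standard error, adjusted p = 0.0399). The ITGB4 call was lost whichever library was left out (adjusted p = 0.076 to 0.147), without the filter on low values (0.0979) and without the variance trend (0.063). ITGB4 and ITGA6, the genes of the hemidesmosome receptor, were both lower in each TGF-β1 library than in either control. That order was seen in 24.6% of all tested genes. ITGA6 was not tested and had only 5 and 5 reads with TGF-β1 and 8 and 17 in controls. ITGB2, the β2 gene known from leukocytes, had 3.91 and 4.20 RPKM with TGF-β1 and 8.87 and 8.19 RPKM in controls. It fell by 0.99 on the log2 scale (adjusted p = 0.0137), on 110 and 134 reads with TGF-β1 and 204 and 261 in controls. Without the variance trend (adjusted p = 0.0517) or TGF-β1 replicate 1 (0.0526) the ITGB2 call was lost. Of the α partners of β2 with a value, ITGAM had 1 and 4 reads with TGF-β1 and 2 and 3 in controls, and ITGAX had 20 and 10 reads with TGF-β1 and 20 and 29 in controls (adjusted p = 0.424).

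No gene of the core that switches integrins on and ties them to actin was called. Talin and kindlin bind the β tail, and ILK, PINCH and parvin form a complex that links it onward. Of its 7 genes 0 passed by limma, 4 had an unadjusted p below 0.05, and by limma-voom 4 passed (TLN1, TLN2, FERMT1 and LIMS1). Over all tested genes limma-voom called 1186 higher and 2786 lower, against 1015 and 498 by limma. The share of all genes with an unadjusted p below 0.05 was not counted. With the authors' library sizes both TGF-β1 libraries lay above both controls in all 7, an order seen in 29.5% of all tested genes. Their median log2 fold change was 0.43. The median was 0.26 when scaled by recovered totals and 0.27 by limma-voom, and relative to recovered totals the groups of PARVA overlapped. TLN1, the talin of most tissues, measured 35.9 and 42.2 RPKM with TGF-β1 and 27.6 and 31.2 RPKM in controls (0.40, adjusted p = 0.0963). TLN2, its relative of muscle and brain, measured 1.18 and 1.46 RPKM with TGF-β1 and 0.646 and 0.676 RPKM in controls (0.64, adjusted p = 0.186). In every library TLN2 lay far below TLN1 per length.

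FERMT2, the broadly expressed kindlin-2 gene, measured 4.54 and 4.33 RPKM with TGF-β1 and 3.38 and 3.44 RPKM in controls (0.34, adjusted p = 0.222). FERMT1, the kindlin of epithelia, had 1.46 and 2.71 RPKM with TGF-β1 and 0.853 and 1.09 RPKM in controls (0.77, adjusted p = 0.212). The TGF-β1 replicates of FERMT1 differed from each other by more than the group means did.

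ILK, a pseudokinase scaffold, measured 11.9 and 15.3 RPKM with TGF-β1 and 9.01 and 10.8 RPKM in controls (0.43, adjusted p = 0.173). On the opposite strand TAF10 covers 68.1% of the exon bases of ILK, and the sources used here do not say if counting used strand. LIMS1, which encodes PINCH1, had 5.84 and 6.41 RPKM with TGF-β1 and 3.13 and 4.09 RPKM in controls (0.70, adjusted p = 0.0723), but shares 21.1% of its words with genes that include LIMS3 and LIMS4. LIMS1 passed among genes with a mean of at least 2 RPKM (adjusted p = 0.0464). PARVA, α-parvin, had 3.06 and 3.67 RPKM with TGF-β1 and 2.22 and 2.99 RPKM in controls (0.32, adjusted p = 0.413). The ratio of ILK to PARVA within a library overlapped between groups, with log2 values of 1.96 and 2.06 in TGF-β1 libraries and 2.02 and 1.85 in controls. That of LIMS1 to PARVA did not overlap, at 0.93 and 0.80 with TGF-β1 and 0.49 and 0.45 in controls.

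Paxillin led the signalling scaffolds. PXN (ENSG00000089159.16, chromosome 12, 120210439 to 120265771) encodes paxillin, the adaptor that recruits kinases and vinculin to the integrin tail. It measured 93.2 and 89.7 RPKM with TGF-β1 and 31.7 and 30.7 RPKM in controls, 2.93 times as much by the means. PXN rose by 1.54 ± 0.06 (standard error) on the log2 scale (adjusted p = 0.00127), a call kept under all 14 alternatives run. PXN-AS1, antisense to 12.3% of its exon bases, had 32 and 34 reads with TGF-β1 and 31 and 38 in controls, against 2888 and 3152 reads of PXN with TGF-β1 and 801 and 1076 in controls. The paxillin relative TGFB1I1 (ENSG00000140682.18), or HIC5, was found as a transcript induced by TGF-β in mouse cells. It measured 22.3 and 22.6 RPKM with TGF-β1 and 12.1 and 14.9 RPKM in controls and rose by 0.72 ± 0.12 (adjusted p = 0.0276). Leaving out either TGF-β1 replicate (adjusted p = 0.0786 and 0.0927) or the variance trend (0.102) ended the TGFB1I1 call.

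PTK2, which encodes focal adhesion kinase (FAK), had 5.47 and 5.26 RPKM with TGF-β1 and 4.56 and 4.61 RPKM in controls and did not pass (log2 fold change 0.21, 95% confidence interval -0.11 to 0.52, adjusted p = 0.388). BCAR1, the p130Cas scaffold that FAK and SRC phosphorylate, had 34.0 and 32.9 RPKM with TGF-β1 and 38.4 and 37.2 RPKM in controls (-0.17, 95% confidence interval -0.34 to -0.0045, adjusted p = 0.19), and by limma-voom it was lower (-0.35, adjusted p = 9.21e-05). Of the 4 scaffolds, the transcripts of paxillin and its relative rose, while the interval for FAK covers no change and that for BCAR1 lies just below it.

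Of the genes that join the plaque to actin, TNS1 changed most. TNS1 (ENSG00000079308.16, chromosome 2, 217799588 to 218033982) encodes tensin-1, which binds β tails and actin in mature fibrillar adhesions. It measured 12.4 and 15.0 RPKM with TGF-β1 and 2.98 and 2.80 RPKM in controls, and its rise of 2.06 ± 0.14 (standard error) on the log2 scale (adjusted p = 0.00319) was the largest of the 32 and kept under all 14 alternatives. Its relative TNS3 measured 9.94 and 12.0 RPKM with TGF-β1 and 7.61 and 7.71 RPKM in controls and did not pass (0.49, adjusted p = 0.0819), although it was higher by limma-voom (0.34, adjusted p = 0.0084). TNS1 was thus below TNS3 in both controls and above it in both TGF-β1 libraries, with log2 ratios of 0.31 and 0.32 with TGF-β1 and -1.35 and -1.46 in controls. VCL, the vinculin that joins talin to actin, measured 29.1 and 38.0 RPKM with TGF-β1 and 24.7 and 27.6 RPKM in controls (0.35, adjusted p = 0.224). AP3M1 on the opposite strand covers 11.1% of the VCL exon bases.

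The zyxin, testin, LIM-only and PDZ-LIM families, many of whose proteins gather at adhesions under tension, have 8 members in the list. Of these 4 rose (50%) and 1 fell (12.5%), where 6.12% and 3.0% of all tested genes did. PXN, TGFB1I1 and LIMS1, described above, also encode LIM-domain proteins. ZYX (ENSG00000159840.15, chromosome 7, 143381080 to 143391111) encodes zyxin, which brings actin-assembly factors to strained fibres, and had the highest level of the 36 genes in both groups. It measured 164 and 182 RPKM with TGF-β1 and 89.7 and 82.7 RPKM in controls, a rise of 1.00 ± 0.08 on the log2 scale (adjusted p = 0.00453). The zyxin relative LPP measured 6.30 and 6.65 RPKM with TGF-β1 and 6.65 and 6.64 RPKM in controls, and its groups overlapped (-0.04, 95% confidence interval -0.32 to 0.25, adjusted p = 0.886). TES, the testin gene, had 37.4 and 33.7 RPKM with TGF-β1 and 26.8 and 26.6 RPKM in controls (0.40, adjusted p = 0.0437). The TES call was the least stable of the 13, since it was kept under 3 of 14 alternatives and lost whichever library was left out (adjusted p = 0.088 to 0.181).

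FHL2, a LIM-only coregulator that shuttles between adhesions and the nucleus, measured 26.2 and 26.1 RPKM with TGF-β1 and 12.7 and 14.9 RPKM in controls. It rose by 0.90 ± 0.10 on the log2 scale (adjusted p = 0.0106). CSRP1, a LIM-only protein that binds α-actinin and zyxin, measured 7.10 and 8.45 RPKM with TGF-β1 and 8.59 and 10.4 RPKM in controls, a difference that did not pass (-0.27, adjusted p = 0.339). By limma-voom CSRP1 was lower (-0.47, adjusted p = 0.000427). Among the genes with a CArG box printed above, FHL2, TGFB1I1 and TES rose, while ITGB6 and LPP did not pass. ITGA5, ITGAV, PXN, TNS1, ZYX, ITGB5 and PDLIM7 rose with no CArG box in their windows. Of all tested genes 6.12% rose, and of the tested members 31.2% did. A link between the box and the change was not tested.

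The PDZ-LIM genes PDLIM7 and PDLIM1, whose products bind α-actinin and actin fibres, moved in opposite directions. PDLIM7 (ENSG00000196923.13, chromosome 5, 177483394 to 177497606) measured 74.3 RPKM in both TGF-β1 libraries, on 1360 and 1541 reads, and 26.5 and 25.7 RPKM in controls. It rose by 1.49 ± 0.06 (adjusted p = 0.00127). PDLIM1 (ENSG00000107438.8, chromosome 10, 95237572 to 95291024) measured 28.2 and 30.0 RPKM with TGF-β1 and 45.0 and 50.1 RPKM in controls, and fell by 0.70 on the log2 scale (adjusted p = 0.0127). The log2 ratio of PDLIM7 to PDLIM1 was 1.40 and 1.31 with TGF-β1 and -0.77 and -0.97 in controls, so their order by level turned round. PDLIM5 had 3.27 and 3.40 RPKM with TGF-β1 and 2.09 and 3.06 RPKM in controls (0.34, adjusted p = 0.413).

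**Figure D4:**
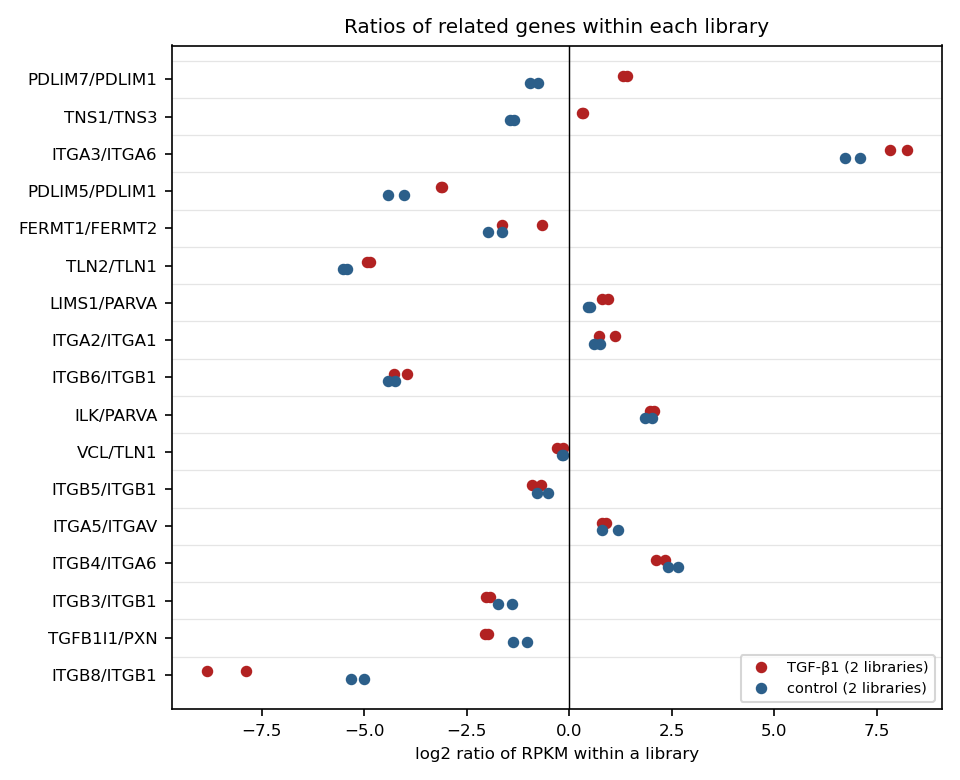
Log2 ratio of the RPKM of 2 related members within each library, which does not depend on scaling between libraries, for 17 pairs in the TGF-β1 libraries (red, upper points) and control libraries (blue, lower points). PDLIM7/PDLIM1 and TNS1/TNS3 lie above 0 with TGF-β1 and below 0 in controls, and ITGB8/ITGB1 shows the largest drop on few ITGB8 reads.

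Other within-library ratios compare relatives that lie at different levels. The log2 ratio of TLN2 to TLN1 was -4.93 and -4.85 with TGF-β1 and -5.42 and -5.53 in controls, a difference of 0.58 where replicates differed by at most 0.11. For TGFB1I1 over PXN it was -2.06 and -1.99 with TGF-β1 and -1.38 and -1.04 in controls, since both rose and PXN by more. The ratio of ITGB3 to ITGB1 was -1.95 and -2.03 with TGF-β1 and -1.39 and -1.75 in controls. Ratios that overlapped between groups were those of ITGB6 and of ITGB5 to ITGB1, ITGA5 to ITGAV, ITGA2 to ITGA1, VCL to TLN1 and ILK to PARVA. For α5 against αV, which both rose, the groups overlapped.

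Other genes of the adhesion pathway were read from the same fit, in which 6.12% of all tested genes rose and 3.0% fell. These lists were written with earlier results of these data known, so their counts are not those of an independent choice. Of 50 further adaptors, kinases and actin linkers 39 were tested, and 10 rose (25.6%) and 5 fell (12.8%), with a median log2 fold change of 0.13. Scaled by recovered totals 6 were higher and 5 lower (median -0.01), and by limma-voom 10 were higher and 10 lower (median -0.02), so the sign of this median depends on the scaling. The 3 with the smallest p among those that rose were FHL3, VASP and FLNA. FHL3, a LIM-only relative of FHL2, averaged 51.0 RPKM with TGF-β1 and 14.4 RPKM in controls. VASP, which zyxin brings to actin filaments, averaged 50.2 RPKM with TGF-β1 and 23.3 RPKM in controls. FLNA, the actin cross-linker filamin A, averaged 659 RPKM with TGF-β1 and 376 RPKM in controls. The 5 that fell were AJUBA, TRIP6, NEXN, GIT1 and FHL1. AJUBA and TRIP6 belong to the zyxin family, and their log2 fold changes were -1.25 and -0.67, while ZYX rose and LPP did not pass.

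Of 12 further integrin subunits 3 were tested, and 0 changed by limma (1 had an unadjusted p below 0.05, and by limma-voom 1 was higher and 1 lower). ITGAE, whose product pairs with β7, had 184 and 181 reads with TGF-β1 and 80 and 143 in controls (adjusted p = 0.116). Among 24 tested matrix ligands of integrins 12 rose (50%) and 2 fell (8.33%), beside 6.12% and 3.0% of all tested genes. Their median log2 fold change was 0.64. Those called lower numbered 6 when scaled by recovered totals, 4 after quantile normalisation and 7 by limma-voom, beside 11, 10 and 15 called higher. TGFB1, LTBP3 and COL1A1 had the smallest p of those that rose, and CCN1 and LAMA3 fell. LAMA3, a laminin chain of epithelial basement membranes, had a log2 fold change of -0.99. Of 11 tested tetraspanins and other partners 3 rose (27.3%, against 6.12% of all tested genes), with a median log2 fold change of 0.19. After quantile normalisation 0 were called by limma in either direction (3 higher and 3 lower at an unadjusted p below 0.05), against 1 higher and 1 lower when scaled by recovered totals (median 0.02) and 3 higher and 2 lower by limma-voom. Those that rose as deposited were CD151, a tetraspanin that binds laminin-receptor integrins (log2 fold change 0.57), SDC1 (0.39) and SLC3A2, which binds β1 tails (0.39).

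The smaller changes depend on how libraries were scaled. Scaling by recovered totals moved the median of all tested genes by -0.15, to -0.13, and that of the 32 members to 0.23, so that 8 rose and 3 fell. The median of the 7 β subunits was 0.15 as deposited and -0.03 with that scaling. ITGA5, PXN, TNS1 and PDLIM7 were called under each of the 14 alternatives. Without the variance trend the calls of ZYX (adjusted p = 0.0548), FHL2 (0.0652), PDLIM1 (0.0823), ITGB5 (0.162) and TES (0.178) ended as well.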

How the data were processed

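A strand-preserving NEBNext kit was used on TRIzol-extracted total RNA, per the labels' protocols. The authors deposited 1 table of RPKM values. Build hg38 and the tools STAR 2.7.1a, bcl2fastq 2.20.0.422 and DESeq2 are listed in the submitters' processing notes, with no roles, and the sources used here do not give the counter, annotation release or strand setting. Times exon length in GENCODE 29, the values equal whole reads, with 0.5 added to each, multiplied by a constant of the library (tolerance 0.01 read) for 25489 genes (99.5%), with the length inferred from the values for 1636. The authors' library sizes were 0.896 and 0.864 times the recovered totals in TGF-β1 libraries and 1.02 and 0.979 times in controls, which raises TGF-β1 values relative to scaling by totals. The depth means that a gene of 1 kb gains 0.212 to 0.295 RPKM with each read.

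Members were matched by symbol. RPKM as deposited, on the log2(RPKM + 0.5) scale, was fitted with limma 3.58.1 in R 4.3.3 (eBayes with variance trend) for genes with a mean of at least 0.5 RPKM, with Benjamini-Hochberg adjustment over all of them. No replicate block was used. Values with ± are estimates and standard errors. The members, lists, pairs and tests were chosen with earlier results of these data known. All members are named. Of other lists, the called genes with the 3 smallest p in each direction are named, or all where 5 or fewer were called, and other genes of a list were chosen after their values were seen. The procedure was also run on simulated counts, scaled by the same totals used to draw them. That run cannot show how the authors' library sizes bear on the calls. Exons came from GENCODE 29, and shared words were counted over its transcripts. Alternatives covered the pseudocount, the filter, scaling, the variance trend, limma-voom, each library left out and a replicate block.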

Additional observations from a re-analysis of the deposited data

How the results depend on the processing

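Of 444 comparisons of a member with an alternative, 392 kept the direction and the side of the threshold, 34 lost a call, 15 gained one and 3 changed sign. The changes of sign were ITGB3 when scaled by recovered totals (-0.026) and by limma-voom (-0.023), and LPP without TGF-β1 replicate 1. With a library left out LPP ranged between -0.072 and 0.00066. Members called higher, 10 as reported, numbered 16 by limma-voom, 4 without the variance trend and 7 to 10 with a library left out. Members called lower, 3 as reported, numbered 7 by limma-voom, 0 by limma without the variance trend (4 at an unadjusted p below 0.05) and 1 to 2 with a library left out. Over all tested genes, 1015 were higher, against 655 when scaled by recovered totals, 280 without the variance trend and 395 to 842 with a library left out. The 498 lower genes became 297 without the filter, 883 when scaled by recovered totals, 2786 by limma-voom, 144 without the variance trend and 179 to 297 with a library left out. Higher genes made up 67.1% of calls as deposited, 42.6% when scaled by recovered totals, 50.4% after quantile normalisation and 29.9% by limma-voom. The cause of these changes was not tested. With a replicate block 11 members were higher and 2 lower, ITGB1 and TLN1 were gained (adjusted p = 0.0215 and 0.041) and ITGB4 and TES lost (0.0705 and 0.0517). The labels do not say what a replicate number shares, and the differences between replicates 1 and 2 of the groups correlated with r = 0.026 across genes. A library left out leaves a group with 1 sample, which is assumed to vary like the other group.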
